A study of Homo sapiens with 18 samples.

Results

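Genes of the NRF2 antioxidant response were examined in RT112 and J82, established human bladder cancer cell lines, with and without palbociclib, which blocks the kinases CDK4 and CDK6 that let cells leave G1. The set was given by name and holds 9 genes: NFE2L2, KEAP1, GCLC, GCLM, TXNRD1, SRXN1, NQO1, HMOX1 and OSGIN1. A gene counted as measured where a transcript cluster of the array carried its symbol and no other. This held for 8 of the 9, out of 22465 genes measured in all. SRXN1 shares its only transcript cluster with SCRT2, so it has no value here. Each of the other 8 had a single transcript cluster.

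The groups were RT112 treated with palbociclib at its IC50, RT112 control (PBS), J82 treated with palbociclib at its IC50 and J82 control (PBS), with 3 arrays each. The 3 arrays of a group came from different culture dishes, so p-values rest on the spread between dishes. Except where a line was fitted alone, that spread was estimated for each gene over both lines together. A p-value within either line thus also depends on the arrays of the other line. The IC50 in molar units and the hours of exposure are not given in the sources used here. A further line, 5637, was left out because its row names did not hold: over 67528 transcript cluster rows its line mean correlated with those of RT112 and J82 at r = 0.027, whereas RT112 and J82 correlated at r = 0.94.

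NRF2, the protein of NFE2L2, is a transcription factor that is made continuously and destroyed continuously in unstressed cells. KEAP1 binds it and hands it to a CUL3 ubiquitin ligase, and electrophiles or oxidants that modify KEAP1 let NRF2 reach the nucleus. There it pairs with a small MAF protein and binds antioxidant response elements near genes for glutathione synthesis, thioredoxin reduction, quinone reduction and NADPH supply. Control is largely at the level of the protein, so the mRNA of NFE2L2 or KEAP1 does not report NRF2 activity by itself. Bladder cancers are among the tumours in which the pathway can be switched on by mutation of NFE2L2 or KEAP1.

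Values are deposited log2 intensities, and a difference is palbociclib minus control, or RT112 minus J82, on that log2 scale, with its standard error (SE) from limma over the 12 arrays. The scale runs past the range of the scanner, so differences are not converted to folds. Array medians over all rows lay between 4.80 and 5.21. RT112 palbociclib replicate 1 stood apart: its median was 5.21, against 4.83 and 4.80 in its partners, the SD over genes was 1.93 there and 2.07 to 2.24 on the other arrays, and it correlated with its partners at r = 0.983, where the lowest value elsewhere was 0.9899. CCNA2, a cyclin gene of dividing cells, stood at 10.11, 10.22 and 10.78 in RT112 with palbociclib and at 14.19, 14.10 and 14.18 in RT112 controls, so this array carried the drug's effect on a cell cycle gene. Differences under the drug in RT112 are given with and without it. On the lines' identity, RT112 had CDH1 at 13.29 to 13.69 and KRT5 at 15.49 to 17.16, whereas J82 had KRT7, KRT8 and KRT18 between 10.14 and 14.83 but CDH1 at 5.10 to 5.85, EPCAM at 5.29 to 5.69 and GATA3 at 5.65 to 5.98, not far above the array medians. Other markers were mixed. RT112 had KRT8 at 11.17 to 11.49, below J82 (12.49 to 13.95), and GATA3 at only 7.46 to 8.13 and FGFR3 at 6.68 to 7.10. Of the mesenchymal genes CDH2 was high in J82 (11.99 to 13.01) and low in RT112 (5.45 to 6.30). VIM was dim in J82 (5.69 to 6.24) and RT112 (4.53 to 4.80), and FN1 was alike (9.75 to 10.44 and 9.50 to 10.60). All 9 markers of blood, endothelial, muscle and liver cells lay between 3.11 and 5.52 in both lines.

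The promoters of 4 target genes called between the untreated lines or under the drug are shown with the core of the antioxidant response element, since this is the sequence through which NRF2 is known to act. For TXNRD1 the window at the downstream one of its starts is shown. The letters searched were TGACNNNGC and TGAGNNNGC on both strands, in the 250 bases before a transcription start of RefSeq (GRCh38.p14), and matches are in capitals. The bases run 5′ to 3′ along the strand of the gene. They come from chr1:93909431-93909680 (minus strand) for GCLM, chr6:53545102-53545351 (minus strand) for GCLC, chr12:104286782-104287031 (plus strand) for TXNRD1 and chr16:83952990-83953239 (plus strand) for OSGIN1.
GCLM: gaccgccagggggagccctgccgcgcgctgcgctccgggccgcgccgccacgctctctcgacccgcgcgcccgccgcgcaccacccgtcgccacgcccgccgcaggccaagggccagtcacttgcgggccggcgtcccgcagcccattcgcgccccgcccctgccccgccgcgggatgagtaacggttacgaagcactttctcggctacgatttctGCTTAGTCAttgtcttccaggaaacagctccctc
GCLC: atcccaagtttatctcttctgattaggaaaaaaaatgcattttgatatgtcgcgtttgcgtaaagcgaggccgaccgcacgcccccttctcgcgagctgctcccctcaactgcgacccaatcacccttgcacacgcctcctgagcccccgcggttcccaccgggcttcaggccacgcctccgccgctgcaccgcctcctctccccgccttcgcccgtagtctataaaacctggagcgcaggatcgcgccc
TXNRD1: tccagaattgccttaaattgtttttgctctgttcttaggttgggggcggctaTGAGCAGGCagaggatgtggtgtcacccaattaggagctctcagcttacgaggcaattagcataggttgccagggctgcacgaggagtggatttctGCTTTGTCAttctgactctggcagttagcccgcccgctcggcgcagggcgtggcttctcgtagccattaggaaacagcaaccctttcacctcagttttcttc
OSGIN1: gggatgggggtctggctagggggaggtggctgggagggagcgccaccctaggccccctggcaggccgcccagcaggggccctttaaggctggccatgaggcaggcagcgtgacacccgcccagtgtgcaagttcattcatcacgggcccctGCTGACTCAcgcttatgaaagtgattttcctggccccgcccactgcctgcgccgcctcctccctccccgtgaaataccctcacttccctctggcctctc

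GCLM held TGACTAAGC on the opposite strand, from 34 to 26 bases before the start. TXNRD1 held TGAGCAGGC on its own strand, from 198 to 190 bases before the start, and TGACAAAGC on the opposite strand, from 102 to 94 bases before. The window at the other start of TXNRD1 (chr12:104215529-104215778), not shown, held TGACTTCGC on the strand of the gene, from 99 to 91 bases before that start. OSGIN1 held TGAGTCAGC on the opposite strand, from 99 to 91 bases before the start. The GCLC window held no match. Of 35116 RefSeq windows of the same length 23.9% held either motif (10.9% TGACNNNGC and 14.8% TGAGNNNGC), and 5.96% held one followed by A. RefSeq windows were matched for 8 of the 9 genes, HMOX1 being the exception. Among their 11 windows 7 held a match, in 6 genes, and in 5 of these genes a match was followed by A. NFE2L2, NQO1 and KEAP1 were the others with a match. KEAP1 held 3 before one of its starts, among them TGACTAAGC on the opposite strand at 31 to 23 bases before it. SRXN1 had none. A match is a description of the letters and does not show binding in these cells.

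The untreated lines differed in 5 of the 8 measured genes, 62.5%, against 27.5% of all genes between these lines (limma, adjusted p under 0.05). Among bright genes fitted alone it was also 5 of the 8, where 5660 of 11232 genes passed (2556 higher and 3104 lower in RT112). Shares over all genes include dim genes and are thus low comparisons. GCLC, GCLM and OSGIN1 were higher in RT112, 3 of 8 or 37.5%, where 12.8% of all genes were. KEAP1 and TXNRD1 were lower in RT112, 2 of 8, where 14.7% of all genes were. The median difference over the 8 genes was -0.07, beside 0.05 over all genes, so the set did not shift one way. NFE2L2, NQO1 and HMOX1 did not pass. These 5 calls held under each of 21 alternative settings.

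**Figure D1:**
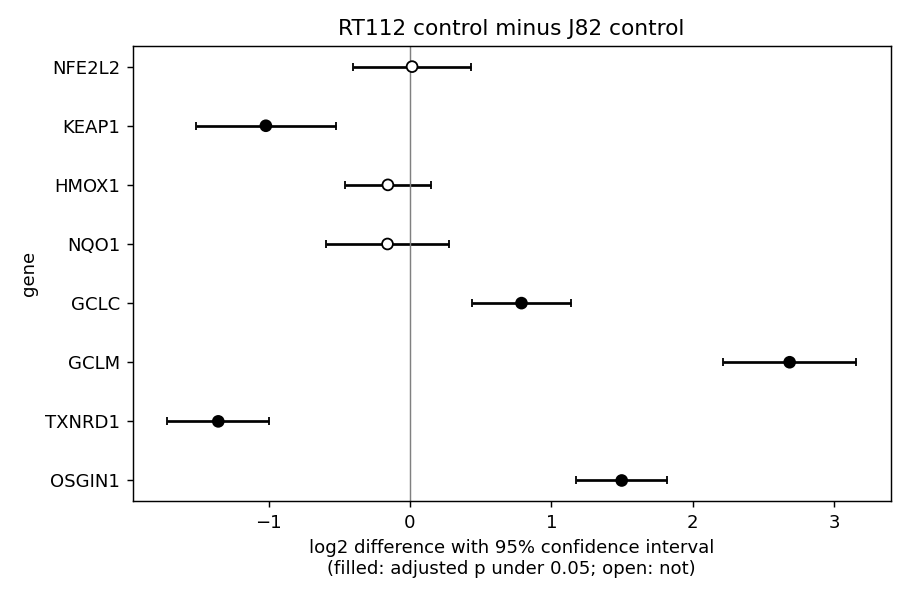
Difference between the untreated lines for each measured gene, RT112 control minus J82 control, on the log2 scale, with 95% confidence intervals from limma (3 arrays per line and treatment). GCLM lies farthest to the right at 2.69 and TXNRD1 farthest to the left at -1.36, and the intervals of NFE2L2, HMOX1 and NQO1 include 0.

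Under palbociclib 1 of the 8 genes, OSGIN1, rose in RT112 (limma, adjusted p under 0.05), 12.5%, where 4.95% of all genes were called higher. Without RT112 palbociclib replicate 1 it was 3 of 8, GCLC, TXNRD1 and OSGIN1, 37.5%, where 8.09% of all genes were called higher. The median difference of the 8 genes in RT112 was 0.37 with this array and 0.43 without it, beside 0.04 over all genes in the fit of all arrays. In J82 none of the 8 passed (limma, 1 at an unadjusted p under 0.05, KEAP1), where 8.18% of all genes did, and the median was 0.02, beside 0.04 over all genes. Among bright genes fitted alone, 1 of the 8 passed in RT112, where 1309 of 11232 genes rose. In J82 it was 0 of the 8, where 2142 of 11232 passed. The palbociclib and control arrays did not overlap for 2 of 8 genes in RT112 (NFE2L2 and OSGIN1), where 22.8% of all genes did not, and for 1 of 8 in J82 (GCLC), where 23.9% did not.

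**Figure D2:**
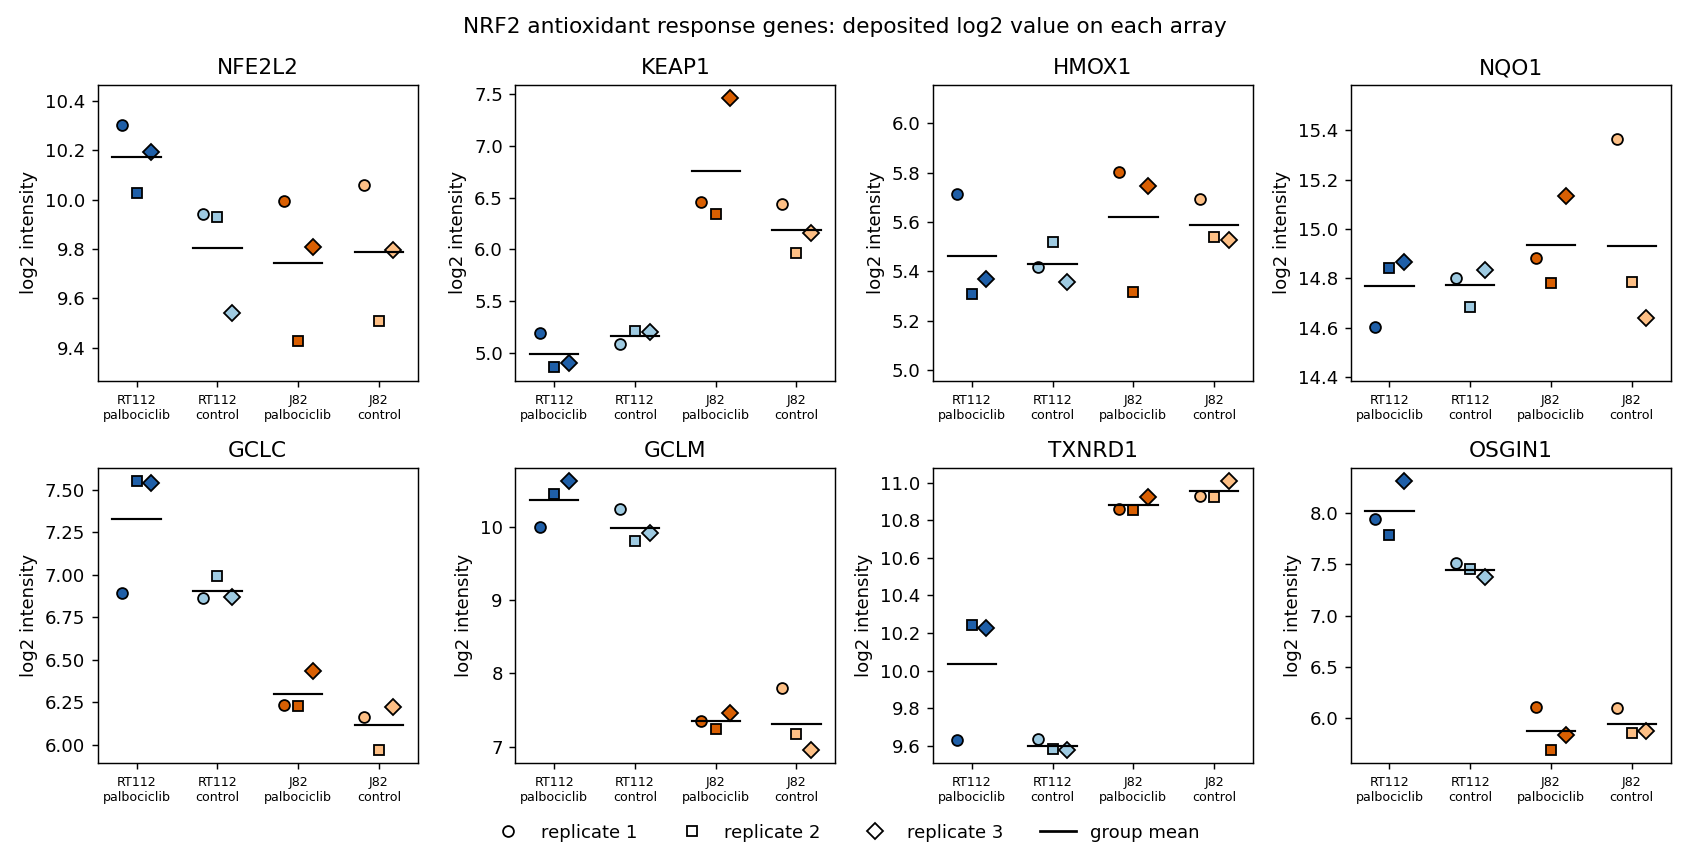
Deposited log2 intensity of each measured gene on each of the 12 arrays, by line and treatment. Circles, squares and diamonds are replicates 1, 2 and 3, lines are group means, and each panel has its own axis that does not start at 0. In RT112 with palbociclib, replicates 2 and 3 of GCLC and TXNRD1 lie above the controls while replicate 1 lies at their level, and all 3 of OSGIN1 lie above.

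NFE2L2 encodes NRF2 itself (chromosome 2, 177230303 to 177264727). It stood at 10.30, 10.03 and 10.19 in RT112 with palbociclib, against 9.94, 9.93 and 9.54 in RT112 controls. J82 had 9.99, 9.43 and 9.81 with palbociclib, against 10.06, 9.51 and 9.80 in controls. The RT112 groups did not overlap, but the difference of 0.37 ± 0.19 (SE, n = 3 per group) did not pass (limma, adjusted p = 0.352; 0.31 without replicate 1, adjusted p = 0.380), nor did the -0.05 ± 0.19 of J82 (adjusted p = 0.976). Control levels were close in the 2 lines, with a difference of 0.02 and a 95% confidence interval of -0.40 to 0.43.

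KEAP1, the NRF2 inhibitor (chromosome 19, 10486125 to 10503356), was at 5.19, 4.86 and 4.91 in RT112 with palbociclib, against 5.09, 5.22 and 5.21 in RT112 controls. J82 had 6.46, 6.35 and 7.46 with palbociclib, against 6.44, 5.97 and 6.16 in controls. Every RT112 array lay below every J82 array, and 1 palbociclib array of J82, replicate 3, lay well above the rest. The difference under the drug was -0.18 ± 0.23 in RT112 and 0.57 ± 0.23 in J82, and neither passed (limma, adjusted p = 0.858 in RT112 and 0.178 in J82). Without RT112 palbociclib replicate 1 the RT112 difference was -0.29 (adjusted p = 0.518). Without J82 palbociclib replicate 3 the J82 difference was 0.21. Between the untreated lines KEAP1 was lower in RT112, at -1.02 ± 0.23 (adjusted p = 0.00354). RT112 values lie close to the array medians, so background limits the size of that difference.

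GCLC (chromosome 6, 53497341 to 53545101) and GCLM (chromosome 1, 93885199 to 93909430) encode the catalytic and the modifier subunit of glutamate-cysteine ligase, the rate-limiting enzyme of glutathione synthesis. GCLC was at 6.89, 7.55 and 7.54 in RT112 with palbociclib, against 6.87, 6.99 and 6.87 in RT112 controls. J82 had 6.23, 6.23 and 6.44 with palbociclib, against 6.16, 5.97 and 6.23 in controls. Replicates 2 and 3 of RT112 with palbociclib lay above all RT112 controls and replicate 1 lay among them. The RT112 difference of 0.42 ± 0.16 did not pass (limma, adjusted p = 0.155) with replicate 1 and was 0.64 ± 0.11 without it (adjusted p = 0.00306). The J82 difference was 0.18 ± 0.16 (adjusted p = 0.698). Between the untreated lines GCLC was higher in RT112 by 0.79 ± 0.16 (adjusted p = 0.00179).

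GCLM was at 10.01, 10.45 and 10.63 in RT112 with palbociclib, against 10.25, 9.81 and 9.92 in RT112 controls. J82 had 7.35, 7.24 and 7.46 with palbociclib, against 7.80, 7.17 and 6.95 in controls. Palbociclib and control arrays overlapped in each line, and the lines lay far apart. The difference under the drug was 0.37 ± 0.22 in RT112 (limma, adjusted p = 0.446), 0.55 ± 0.23 there without replicate 1 (adjusted p = 0.139), and 0.04 ± 0.22 in J82 (adjusted p = 0.981). Between the untreated lines GCLM was higher in RT112 by 2.69 ± 0.22 (adjusted p = 3.14e-07), the widest difference within the set, so both subunits of the ligase were higher in that line.

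TXNRD1 (chromosome 12, 104215779 to 104350307) encodes cytosolic thioredoxin reductase, which uses NADPH to keep thioredoxin reduced. It was at 9.63, 10.25 and 10.23 in RT112 with palbociclib, against 9.63, 9.58 and 9.58 in RT112 controls. J82 had 10.86, 10.86 and 10.92 with palbociclib, against 10.93, 10.92 and 11.01 in controls. As for GCLC, RT112 replicates 2 and 3 lay above every RT112 control and replicate 1 did not. The RT112 difference was 0.43 ± 0.17 (limma, adjusted p = 0.156), and 0.64 ± 0.12 without replicate 1 (adjusted p = 0.00636). The J82 difference was -0.07 ± 0.17 (adjusted p = 0.940). Between the untreated lines the difference was -1.36 ± 0.17 (limma, adjusted p = 2.08e-05), so TXNRD1, like KEAP1, was called lower in RT112. SRXN1 (chromosome 20, 646615 to 653200), which encodes the sulfiredoxin that repairs overoxidised peroxiredoxins, has no value here, as stated above.

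OSGIN1 (chromosome 16, 83953240 to 83966332), an oxidative stress-induced growth inhibitor, was the gene of the set that rose with all arrays in the fit. It was at 7.94, 7.79 and 8.31 in RT112 with palbociclib, against 7.51, 7.45 and 7.38 in RT112 controls, and the groups did not overlap. The rise was 0.57 ± 0.15 (limma, adjusted p = 0.0314), and 0.60 ± 0.17 without replicate 1 (adjusted p = 0.0342). The call was kept in 15 of 22 alternatives and lost without RT112 control replicate 1 (0.60), 2 (0.57) or 3 (0.53), without palbociclib replicate 3 (0.42), after a shift of the arrays to one median (0.53), with RT112 fitted alone (0.57) and with every transcript cluster tested (0.57). In J82 it read 6.11, 5.69 and 5.84 with palbociclib and 6.11, 5.86 and 5.88 in controls, a difference of -0.07 ± 0.15 (adjusted p = 0.940). Controls differed between the lines by 1.498 ± 0.15 (adjusted p = 2.76e-06), higher in RT112.

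NQO1 (chromosome 16, 69709401 to 69726560), a quinone reductase and a standard readout of NRF2 activity, was bright in every group. It was at 14.60, 14.84 and 14.87 in RT112 with palbociclib and at 14.80, 14.68 and 14.83 in RT112 controls. In J82 it was at 14.88, 14.78 and 15.14 with palbociclib and at 15.37, 14.79 and 14.64 in controls. No difference was detected under the drug: 95% confidence intervals ran from -0.43 to 0.43 in each line, and RT112 without palbociclib replicate 1 stood at 0.08 (limma, adjusted p = 0.822). The lines' controls differed by -0.16 ± 0.20 (limma, adjusted p = 0.647).

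HMOX1 (chromosome 22, 35381096 to 35394207), the inducible heme oxygenase, was dim throughout, between 5.31 and 5.80 on all 12 arrays. RT112 gave 5.71, 5.31 and 5.37 with palbociclib and 5.42, 5.52 and 5.36 in controls. J82 gave 5.80, 5.32 and 5.75 with palbociclib and 5.70, 5.54 and 5.53 in controls. The difference was 0.03 ± 0.14 in RT112 (limma, adjusted p = 0.980), -0.09 there without replicate 1 (adjusted p = 0.687) and 0.03 ± 0.14 in J82 (adjusted p = 0.9753). Near background a change can be understated, so these intervals limit the signal and not the transcript.

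**Figure D3:**
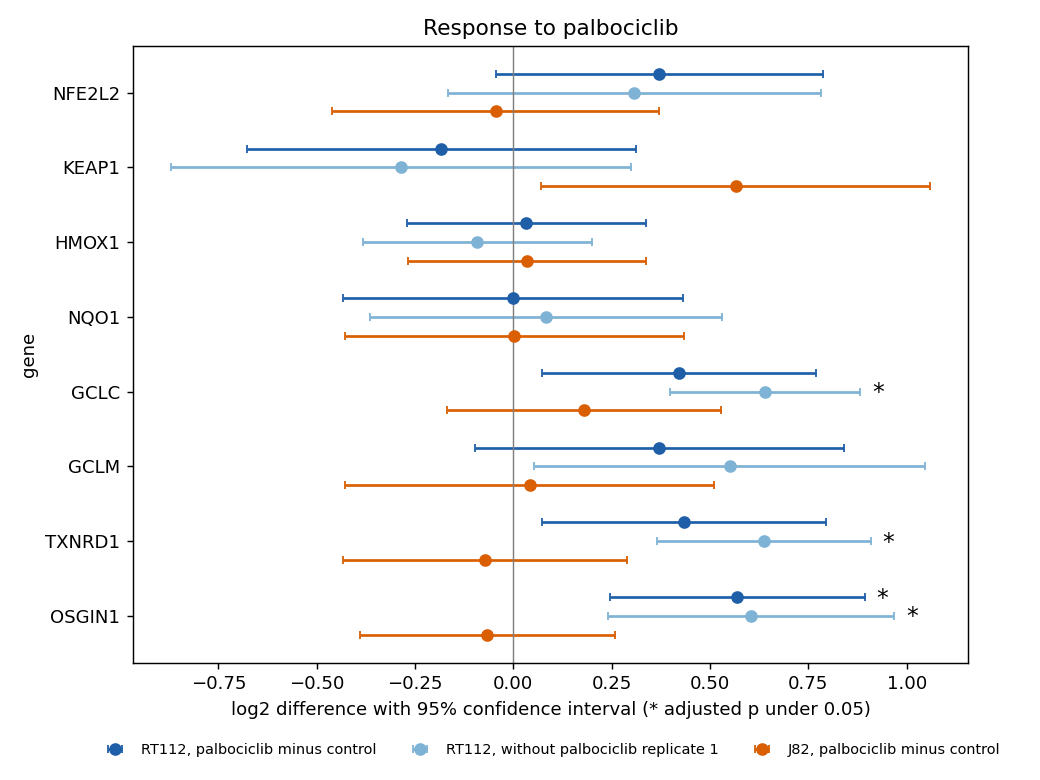
Palbociclib minus control on the log2 scale for each measured gene, with 95% confidence intervals from limma (3 arrays per group), for RT112 with all arrays, RT112 without palbociclib replicate 1 and J82. Stars mark an adjusted p under 0.05: OSGIN1 in both RT112 fits, and GCLC and TXNRD1 in the fit without replicate 1.

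Whether the lines responded differently was tested as the RT112 response minus the J82 response. None of the 8 genes passed (limma, 2 at an unadjusted p under 0.05, KEAP1 and OSGIN1), where 4.57% of all genes did. OSGIN1 came to 0.63 ± 0.21 (adjusted p = 0.132), TXNRD1 to 0.51 ± 0.24 (adjusted p = 0.345) and KEAP1 to -0.75 ± 0.33 (adjusted p = 0.288). Without RT112 palbociclib replicate 1 the difference for TXNRD1 was 0.71 ± 0.17 (adjusted p = 0.0267) and it was the only call, 1 of 8, where 6.75% of all genes were called. GCLC (0.46, adjusted p = 0.0929) and OSGIN1 (0.67, adjusted p = 0.104) did not pass then either.

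Within the set, values were compared as deviations from the mean of their own line over the 12 arrays, which removes the difference between lines and keeps that of the treatment and of single arrays. The closest pair was GCLC and TXNRD1 (Pearson r = 0.884), followed by NQO1 with GCLM and NFE2L2 with OSGIN1 (both 0.78). The lowest was HMOX1 and TXNRD1 at -0.338. NFE2L2 and KEAP1 were at 0.118. Over all genes tested, those most like each member were RPL37A (0.966) and LRRC41 (0.942) for NFE2L2, NUDT7 (0.937) and PID1 (0.935) for KEAP1, BTRC (0.956) and TBCK (0.955) for GCLC, and EEIG1 (0.943) for GCLM. HERC3 and POTEE (both 0.977) were closest to TXNRD1, MYC (0.929) and ERCC1 (0.919) to OSGIN1, YBX3 (0.917) and MAP7D3 (0.912) to NQO1, and CYTIP (0.95) to HMOX1. These are descriptions over 12 arrays that share lines, treatment and array quality, with RT112 palbociclib replicate 1 among them, and the closest of 22465 genes is high by selection.

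Other genes of the pathway were described from 7 lists of 102 genes, of which 90 were measured. In RT112 with palbociclib 11 of 90 rose (12.2%, where 4.95% of all genes did) and 3 fell (3.33%, where 3.53% did). Without replicate 1 it was 22 (24.4%, where 8.09% did) and 5 (5.56%, where 5.11% did). In J82 16 of 90 rose (17.8%, where 5.4% of all genes did) and 1 fell (1.11%, where 2.78% did). Of the 90 genes 83 were among the 11232 bright genes. Fitted on bright genes alone, 13 rose and 4 fell in RT112, where 1309 and 887 of the 11232 did. In J82 20 rose and 1 fell, where 1427 and 715 did. Shares over all genes, here and for each list below, include dim genes and are thus low comparisons. The median difference of the 90 genes was 0.12 in RT112 and 0.10 in J82, beside 0.04 over all genes in each line. Of all genes 1112 rose and 793 fell in RT112, 631 and 793 after a shift of the arrays to one median and 1450 and 1172 after quantile normalization. In J82 it was 1213 and 624, then 830 and 695, and 1226 and 1075. The wider lists then gave 7 higher and 3 lower in RT112 and 10 higher and 1 lower in J82 after the shift to one median, and 18 and 5 in RT112 and 15 and 2 in J82 after quantile normalization. The 16 rises in J82 were 9 without J82 palbociclib replicate 3, and the 11 in RT112 were 6 or 7 without any 1 RT112 array other than palbociclib replicate 1.

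In the list of NRF2 regulators 2 of 10 genes rose in RT112 (20%, where 4.95% of all genes did). Without replicate 1 it was 4 (40%, where 8.09% did). In J82 2 rose (20%, where 5.4% did) and 1 fell (10%, where 2.78% did). In the list of small MAF, BACH and other CNC factors 1 of 6 fell in RT112 (16.7%, where 3.53% of all genes did). Without replicate 1 it was 1 higher and 1 lower (16.7% each, where 8.09% and 5.11% were). In J82 1 of 6 rose (16.7%, where 5.4% did). SQSTM1, the autophagy receptor that sequesters KEAP1, rose in both lines, by 0.65 ± 0.12 in RT112 (limma, adjusted p = 0.0043; 0.72 without replicate 1) and by 0.56 ± 0.12 in J82 (adjusted p = 0.0128). The J82 call was lost without J82 control replicate 2 (0.53), after the shift to one median (0.51) and with J82 fitted alone (0.56). MDM2, which encodes a ubiquitin ligase of p53, rose by 0.62 ± 0.15 in RT112 (adjusted p = 0.0196), and its call was lost without any RT112 array other than palbociclib replicate 1 (0.50 to 0.66), after the shift to one median (0.58) and with every transcript cluster tested (0.62). Without palbociclib replicate 1 it stood at 0.73. PALB2, a BRCA2 partner that also binds KEAP1, rose by 0.75 ± 0.18 in J82 (adjusted p = 0.0177), a call lost without J82 control replicate 1 (0.72), control replicate 3 (0.72) or palbociclib replicate 3 (0.56), after the shift to one median (0.70) and with J82 fitted alone (0.75). In RT112 it stood at -0.21 ± 0.18, and at -0.05 without replicate 1. NFE2L1, the related factor that drives proteasome genes, rose by 1.47 ± 0.22 in J82 (adjusted p = 0.000979). In RT112 it stood at 0.60 ± 0.22 (adjusted p = 0.131) and passed without replicate 1, at 0.78 (adjusted p = 0.0403), after quantile normalization (0.59) and with array weights (0.82). NFE2L3, another member of that family, fell by 0.84 ± 0.16 in RT112 (adjusted p = 0.00454; -0.82 without replicate 1) and stood at -0.31 ± 0.16 in J82 (adjusted p = 0.338).

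Of 21 glutathione genes 2 rose in RT112 (9.52%, where 4.95% of all genes did) and 1 fell (4.76%, where 3.53% did), and without replicate 1 it was 3 (14.3%, where 8.09% did) and 2 (9.52%, where 5.11% did). In J82 5 of 21 rose (23.8%, where 5.4% did). SLC7A11, the cystine transporter that feeds glutathione synthesis, was at 16.85, 17.64 and 17.33 in RT112 with palbociclib, against 15.91, 16.14 and 16.38 in RT112 controls. J82 gave 14.58, 15.14 and 15.54 with palbociclib, against 15.05, 14.61 and 15.26 in controls. The rise in RT112 was 1.13 ± 0.27 (limma, adjusted p = 0.0188; 1.35 without replicate 1), and the difference between the responses, 1.02 ± 0.39, did not pass (adjusted p = 0.199). The RT112 call was lost without control replicate 1 (1.02) or 2 (1.13) and without palbociclib replicate 2 (0.95) or 3 (1.11). SLC3A2, the partner chain of SLC7A11, rose by 1.62 ± 0.26 in J82 (adjusted p = 0.00168), with 0.46 ± 0.26 in RT112 (adjusted p = 0.413; 0.72 without replicate 1, adjusted p = 0.0822). GPX1, a glutathione peroxidase, rose by 1.21 ± 0.21 in J82 (adjusted p = 0.0028). In RT112 it stood at 0.59 ± 0.21 (adjusted p = 0.115), and at 0.73 without replicate 1 (adjusted p = 0.0593). CHAC2, which degrades glutathione, fell by 1.82 ± 0.18 in RT112 (adjusted p = 1.42e-05; -1.77 without replicate 1) and was at -0.41 ± 0.18 in J82 (adjusted p = 0.234), and the responses differed by -1.41 ± 0.26 (adjusted p = 0.00498). It was at 5.6 to 6.5 on the J82 arrays, not far above their medians, so background can limit a fall there and thus affect that difference. CHAC1, of the same list and named after its values were seen, rose in both lines. The rise was 0.63 ± 0.12 in RT112 (limma, adjusted p = 0.00353; 0.57 without replicate 1) and 0.54 ± 0.12 in J82 (adjusted p = 0.0101). CHAC1 was dim, between 5.33 and 6.16 on all 12 arrays.

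In the thioredoxin and peroxiredoxin list 1 of 14 genes rose in RT112, a share (7.14%) near that of all genes (4.95%). Without replicate 1 it was 1 higher and 1 lower (7.14% each, where 8.09% and 5.11% were). In J82 3 of 14 rose (21.4%, where 5.4% of all genes did). TXNIP, an inhibitor of thioredoxin and a glucose-responsive gene, rose in both, by 2.43 ± 0.29 in RT112 (2.86 without replicate 1) and by 2.50 ± 0.29 in J82 (limma, adjusted p = 9.13e-05 and 0.000153), and it works against the system the list is named for. SESN3, a stress-induced sestrin, rose by 1.13 ± 0.25 in J82 (adjusted p = 0.0117), a call lost without J82 palbociclib replicate 3 (0.90). It stood at 0.42 ± 0.25 in RT112 (adjusted p = 0.458), and at 0.71 without replicate 1 (adjusted p = 0.055).

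Among 9 genes of NADPH supply 2 rose in each line (22.2%, where 4.95% of all genes did in RT112 and 5.4% in J82), and 3 in RT112 without replicate 1 (33.3%, where 8.09% did). ME1, the cytosolic malic enzyme, was at 10.13, 10.57 and 10.56 in RT112 with palbociclib, against 9.35, 9.26 and 9.53 in RT112 controls, and the groups did not overlap. J82 gave 7.81, 8.42 and 8.51 with palbociclib, against 8.32, 8.22 and 8.20 in controls. The rise was 1.04 ± 0.19 in RT112 (limma, adjusted p = 0.00308; 1.19 without replicate 1), and J82 stood at 0.00 ± 0.19. The responses differed by 1.04 ± 0.27 (adjusted p = 0.0422), a call that was lost when any 1 RT112 array other than palbociclib replicate 1 was left out, or any J82 control or J82 palbociclib replicate 1 (0.82 to 1.11). The shift to one median (1.05) also ended that call, as did testing every transcript cluster (1.04). IDH1, the cytosolic isocitrate dehydrogenase, rose by 1.19 ± 0.24 in RT112 (adjusted p = 0.00644; 1.37 without replicate 1) and by 1.03 ± 0.24 in J82 (adjusted p = 0.0164). The J82 call of IDH1 was lost without J82 control replicate 1 (0.82), palbociclib replicate 2 (1.01) or palbociclib replicate 3 (0.84), after the shift to one median (0.98) and with J82 fitted alone (1.03). NNT, the mitochondrial transhydrogenase, rose by 0.79 ± 0.18 in J82 (adjusted p = 0.016), a call lost without J82 control replicate 1 (0.75) or 2 (0.78) or palbociclib replicate 3 (0.58) and with J82 fitted alone (0.79). In RT112 it stood at -0.08 ± 0.18, and at -0.01 without replicate 1.

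Of 21 detoxification genes 4 rose in RT112 (19.0%, where 4.95% of all genes did) and 1 fell (4.76%, where 3.53% did), and without replicate 1 it was 9 (42.9%, where 8.09% did) and 1 (4.76%, where 5.11% did). In J82 2 of 21 rose (9.52%, where 5.4% did). PIR, an iron-binding nuclear protein known as an NRF2 target, was at 8.18, 8.64 and 8.54 in RT112 with palbociclib, against 7.61, 7.41 and 7.64 in RT112 controls. J82 gave 7.21, 7.23 and 7.45 with palbociclib, against 7.07, 7.09 and 7.19 in controls. It rose by 0.90 ± 0.14 in RT112 (limma, adjusted p = 0.000928; 1.04 without replicate 1) and stood at 0.18 ± 0.14 in J82 (adjusted p = 0.621). The difference between the responses, 0.72 ± 0.20, missed the threshold (adjusted p = 0.0575) and passed without RT112 palbociclib replicate 1 (0.86, adjusted p = 0.00884) or J82 palbociclib replicate 3 (0.80, adjusted p = 0.0446). It also passed with a replicate block, after quantile normalization, with bright genes only, without an intensity trend and with array weights (0.72 to 0.90). ABCC3, an efflux pump for conjugates, rose by 0.79 ± 0.20 in RT112 (adjusted p = 0.0222; 0.96 without replicate 1) and by 0.93 ± 0.20 in J82 (adjusted p = 0.00884). In RT112 the ABCC3 call was lost without any RT112 array other than palbociclib replicate 1 (0.62 to 0.81), after the shift to one median (0.75) and with every transcript cluster tested (0.79). ESD, an esterase, rose by 0.87 ± 0.17 in J82 (adjusted p = 0.00488), with 0.27 ± 0.17 in RT112 (adjusted p = 0.467; 0.37 without replicate 1, adjusted p = 0.178). Of 9 heme and iron genes none passed in RT112 with all arrays, where 4.95% of all genes rose and 3.53% fell. Without replicate 1 it was 1 (11.1%, where 8.09% rose), the transporter gene ABCB6 (0.38, adjusted p = 0.0327), named after its value was seen. BLVRB, a biliverdin reductase, was the 1 of 9 that passed in J82 (11.1%, where 5.4% rose), at 0.81 ± 0.23 (adjusted p = 0.0481). It lost the call in 16 of 22 alternatives, among them that without RT112 palbociclib replicate 1 (adjusted p = 0.0561).

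**Figure D4:**
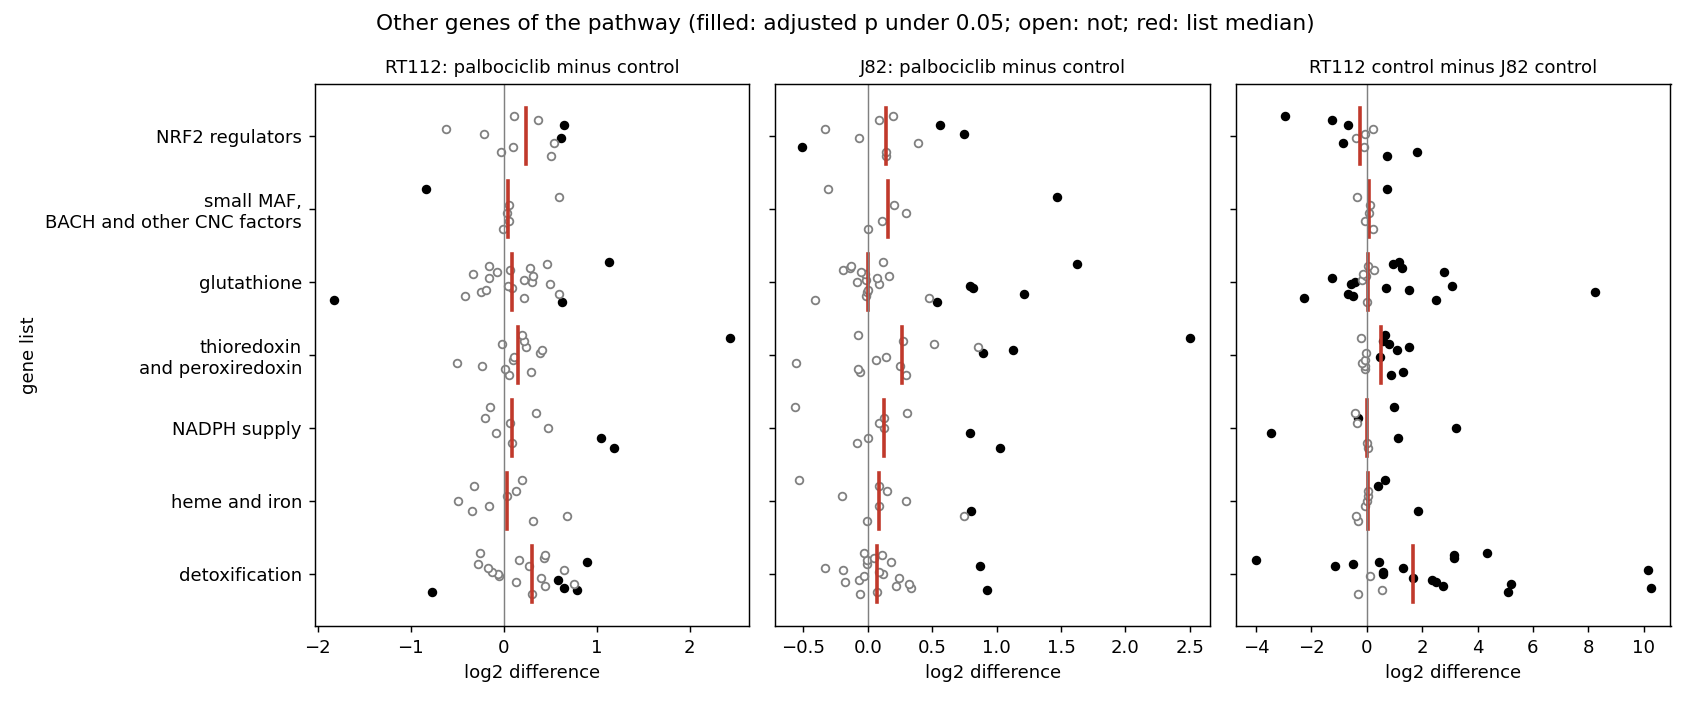
Log2 difference of each measured gene of the 7 wider lists, in RT112 (palbociclib minus control), in J82 (palbociclib minus control) and between the untreated lines (RT112 control minus J82 control). Each point is a gene, filled where the adjusted p is under 0.05, and the red bar is the list median. In the right panel the detoxification list has its median at 1.68 and points beyond 10.

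Between the untreated lines 41 of the 90 genes were higher in RT112 (45.6%, where 12.8% of all genes were) and 15 lower (16.7%, where 14.7% were). Among bright genes fitted alone 41 of 83 were higher and 18 lower, where 2556 and 3104 of 11232 were. The detoxification list had 15 of 21 higher, 3 lower and a median difference of 1.68, beside 0.05 over all genes. In the thioredoxin and peroxiredoxin list 8 of 14 were higher and none lower, in the glutathione list 9 of 21 were higher and 6 lower, and in NADPH supply 3 of 9 were higher and 2 lower. Of 9 heme and iron genes 3 were higher and none lower, and of 6 small MAF, BACH and other CNC factors 1 was higher and none lower. The NRF2 regulators went the other way on balance, with 2 of 10 higher, 4 lower and a median of -0.25. The genes that follow were chosen after their values were seen, and others differed as much. AKR1B10, an aldo-keto reductase, was at 15.70, 15.52 and 15.54 in RT112 controls and at 5.27, 5.34 and 5.38 in J82 controls, a difference of 10.25 ± 0.18 (limma, adjusted p = 1.01e-13). CES1, a carboxylesterase, was at 15.51, 15.51 and 16.09 in RT112 controls and at 5.61, 5.50 and 5.49 in J82 controls, a difference of 10.17 ± 0.28 (adjusted p = 4.45e-12). GPX2, a glutathione peroxidase of epithelia, differed by 8.24 ± 0.31 (adjusted p = 9.9e-11). J82 values of these 3 lie near the array medians, so background limits the sizes, and both AKR1B10 and CES1 have close paralogues that the probes may not separate.

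UGDH, which makes the sugar donor for glucuronidation, was 4.34 ± 0.21 higher in RT112, PGD of the pentose phosphate pathway 3.24 ± 0.19 higher and GSR, the glutathione reductase, 3.08 ± 0.22 higher (limma, adjusted p = 1.26e-09, 1.13e-08 and 6.85e-08). In the other direction PTGR1, an NADPH-dependent reductase of prostaglandins and enones, differed by -4.02 ± 0.15 (adjusted p = 1.15e-10) and NNT by -3.45 ± 0.18 (adjusted p = 3.94e-09). RT112 controls had PTGR1 at 5.11, 5.27 and 5.21, near the array medians, so background limits the size of its difference. PTGR1 is a known NRF2 target as well, so not all targets were higher in the same line. Each of these differences passed in 21 of 21 alternatives.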

How the data were processed

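Total RNA was labelled and hybridised to Affymetrix arrays that cover whole transcripts (labels' protocols). The authors deposited log2 intensities, 1 per probe set, for 18 arrays and 70523 rows. Per the submitters' processing notes RMA and Affymetrix Expression Console were used. Their versions and the build are not given in the sources used. The deposited log2 values reach 19.93, past the 16 of a 16-bit scan, so the scale had been stretched. There are no detection p-values.

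Transcript clusters with 1 symbol in the platform annotation were kept, with the highest-mean row per symbol (22465 genes). The model, fitted in limma 3.58.1 (R 4.3.3), had 1 mean per group (eBayes with an intensity trend, 12 arrays, 8 residual degrees of freedom). Benjamini-Hochberg adjustment ran over all genes, with a threshold of 0.05. The test was checked on simulated data. Members, wider lists and tests were chosen with earlier results of these data known. Genes named from the wider lists are the 2 with the largest called difference per list and line under the drug, and SQSTM1. CHAC1 and ABCB6 were added after their values were seen. Those named for the untreated lines follow no rule and were chosen after their values were seen. Named likenesses are the 2 highest correlations per member, small RNAs left out. BACH1 has no row of its own and was not analysed here, and neither were 11 other genes of the lists. Promoter sequences are RefSeq's.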

Additional observations from a re-analysis of the deposited data

Results flagged for a closer look

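By a test of the difference itself, the responses of the lines to palbociclib differed for 3 of 90 measured wider-list genes. That share (3.33%) was below that of all genes (4.57%). Of the 8 measured antioxidant response genes none passed. CHAC2 had an RT112 response minus J82 response of -1.41 (limma, adjusted p = 0.00498), with the fall in RT112. Its J82 values, 5.6 to 6.5, were low enough for background to limit a fall there. ME1 had a difference of 1.04 (adjusted p = 0.0422), with the rise in RT112, and kept the call in 10 of 21 alternatives (0.82 to 1.24). PALB2 had a difference of -0.96 (adjusted p = 0.0448), with the rise in J82, and -0.80 without RT112 palbociclib replicate 1 (adjusted p = 0.0651). It also kept the call in 10 of 21 alternatives (-1.06 to -0.72).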

How the results depend on the processing

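Of 688 recomputed differences of the 8 measured genes 674 kept their side of the threshold, 7 lost a call and 7 gained one, and none reversed (a change of sign was counted where either value was called or the difference exceeded its SE). Among 1695 for the named genes of the wider lists, 1562 kept their side, 88 lost a call, 45 gained one and none reversed. The measured genes called in RT112, 1 in the fit as reported, numbered 0 after the shift to one median, 0 with every transcript cluster tested, 0 with RT112 fitted alone, 4 with array weights, and 0 to 3 when single arrays were left out. For the difference of the responses the 0 became 1 with array weights and 0 to 1 when single arrays were left out. The wider lists' 17 calls in J82 became 11 after the shift, 9 with J82 fitted alone and 9 to 20 when single arrays were left out, and the 14 in RT112 became 23 after quantile normalization, 43 with array weights and 9 to 27. Over all genes, the 1837 calls in J82 became 1045 with J82 fitted alone and 1147 to 2416 when single arrays were left out, and the 1905 in RT112 became 5780 with array weights and 1131 to 2965. The 1027 differences of the responses became 1625 after quantile normalization and 2384 with array weights, and the 6183 between untreated lines became 9725 of 67528 rows with every transcript cluster tested. Array weights, under which GCLC (0.62), GCLM (0.50), TXNRD1 (0.62) and OSGIN1 passed in RT112, were 0.113 for RT112 palbociclib replicate 1 and 0.388 to 2.538 for the other arrays. The cause of these moves was not tested. Whether the replicate numbers pair the dishes is not settled here. Deviations from the group means correlated between same-numbered palbociclib and control arrays at 0.086, -0.193 and 0.173 in RT112 and at 0.172, 0.188 and 0.075 in J82. With 3 arrays a group such deviations sum to 0, so these values cannot exclude pairing. With a replicate block 1 of the measured genes passed in RT112, 0 in J82, 0 for the difference and 5 between untreated lines, and the wider lists gave 15 calls in RT112 and 18 in J82. With 3 arrays a group and no detection values, differences of dim genes such as HMOX1 and KEAP1 in RT112 are limited by background.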
